A study of Mus musculus with 25 samples.

Results

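E12.5 liver was compared with the livers of the next embryonic days, E13.5 and E14.5. The comparison rests on 6 of the 25 arrays of a study of liver development in random-bred C57/B6 mice, which covered 14 stages from embryonic day 11.5 to 18 weeks after birth. It takes the 4 arrays labelled E13.5 and E14.5, with 2 arrays each, against the 2 arrays labelled E12.5, over all 18194 genes that could be named. The mice carried no stated allele or treatment. RNA came from 1 pool of dissected whole livers per stage, with 9 livers at E12.5, 9 at E13.5 and 6 at E14.5. The 2 arrays of a stage are technical repeats of that pool. The p-values below therefore measure the spread between arrays and not the spread between pools or animals, and what separates these 3 pools beyond their age cannot be told apart from age.

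The liver of the mouse embryo at this age is both a growing gland and the main site of blood formation. The first red cells, made in the yolk sac, carry embryonic globins, and they are joined by definitive red cells that mature in the liver itself and lose their nuclei. Hepatoblasts, the precursors of hepatocytes and bile duct cells, start to secrete plasma proteins while mesenchymal, mesothelial and endothelial cells build the rest of the organ. In RNA of whole tissue, a change in the number of cells of a type and a change in RNA per cell cannot be told apart.

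Levels are given as log2 of the deposited intensity, and a change is the difference of stage means on that scale, so that 1 unit is a doubling. The change of both later stages is the mean of E13.5 and E14.5 minus E12.5. A gene was called where the p of limma, adjusted across the 18194 genes by the method of Benjamini and Hochberg, was under 0.05 and the change was at least 1 log2 unit. Defining transcripts of the labelled tissue were among the brightest on the arrays. Alb, serum albumin, read 13.10 and 12.87 at E12.5 and 13.01 to 13.38 on the later arrays, and Afp, the fetal plasma protein alpha-fetoprotein, read 12.82 to 13.39 on all 6. Neither was called (limma, adjusted p = 0.467 and 0.385). The arrays differed in range. The SD of log2 intensity over genes was 1.83 and 1.70 at E12.5, 1.65 and 1.58 at E13.5 and 1.74 and 1.64 at E14.5, while the medians lay within 6.13 and 6.17.

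The liver after E12.5 had more RNA of some genes of maturing red cells and of a few secreted plasma proteins, and less RNA of embryonic globins and of single genes such as Prap1, Mdk and Cdh11. With both later stages against E12.5, 23 genes rose (0.126% of 18194) and 53 fell (0.291%). All 23 genes that rose read higher on each of the 4 later arrays than on both E12.5 arrays, as did 14.5% of all genes. Of the 53 that fell, 52 read lower on each later array, as did 15.5% of all genes, and the exception was Actc1. After quantile normalisation of the arrays the split was 45 higher and 34 lower, and with equal levels of housekeeping genes, which moves all genes up by 0.25 log2 units, it was 60 and 16. The 23 genes that rose were called under both of these scalings, whereas 34 and 16 of the 53 that fell were. With arrays centred on their medians the split was 22 higher and 60 lower, and all 53 that fell were kept. Without the first E12.5 array 14 genes fell and without the second 204 did, and with each pool counted as 1 sample 8 genes rose and 1, Prap1, fell.

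Genes called at E13.5 or E14.5 changed in the same direction from E12.5 at both stages. The change at E13.5 was called for 34 genes upward (0.187%) and 155 downward (0.852%), and that at E14.5 for 22 upward (0.121%) and 17 downward (0.0934%). Of the 196 genes called at either stage, 196 had changes of 1 sign at both, 39 higher and 157 lower, and 0 were called in opposite directions. Among all genes the 2 changes had 1 sign in 84.2%. Both changes share the E12.5 arrays, which by itself ties their signs, so the count is a description. With E13.5 set against the first E12.5 array and E14.5 against the second, 195 of the 196 had 1 sign. This does not remove the tie, since both arrays are repeats of 1 pool and the 196 genes were called with both. Without the first E12.5 array 87 genes were called at either stage, without the second 490 and without the second E13.5 array 122, and all of these had 1 sign.

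The change was smaller at E14.5 than at E13.5 for 180 of the 196 genes, 28 of the 39 that were higher and 152 of the 157 that were lower. This is a description, since 157 of the 196 were chosen by their call at E13.5 alone, which favours a larger change there. Among all genes with changes of 1 sign, 77.1% had the smaller change at E14.5. Of the genes called over both stages together it was 15 of the 23 that rose and 49 of the 53 that fell. The median change of the lower genes was -1.13 at E13.5 and -0.69 at E14.5, and that of the higher genes was 1.19 and 1.08. Most of these differences in size did not pass the test between the stages. E14.5 set against E13.5 gave 7 genes higher (0.0385%) and 1 lower (0.0055%), 8 in all, which were 3 without the second E13.5 array or the first E14.5 array. Of the 196 genes, 32 were called at both stages, 17 higher and 15 lower, of which 23 had the smaller change at E14.5, and 7 were called at E14.5 alone. After quantile normalisation 142 of 154 called genes had the smaller change at E14.5.

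**Figure D1:**
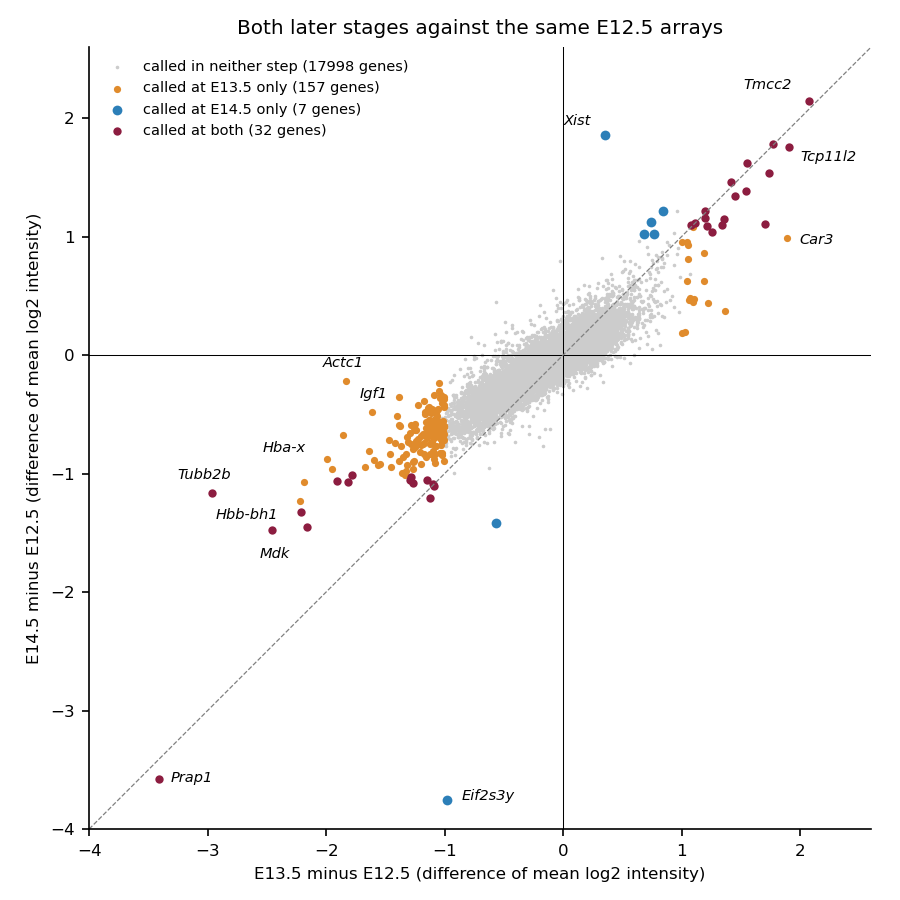
Change from E12.5 to E13.5 (horizontal axis) against change from E12.5 to E14.5 (vertical axis) for 18194 genes, each a difference of mean log2 intensity, with the same E12.5 arrays in both. Colours mark the stage at which a gene was called, and the dashed line marks equal changes. The called genes have either both changes below 0 or both above 0, and most of the lower ones lie above the line, which is a smaller change at E14.5.

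Promoter windows of 4 genes that carry these results are shown, 2 that rose and 2 that fell: Bpgm, an enzyme of red cells, Apoh, a plasma protein, Hba-x, an embryonic globin, and Prap1, the gene with the largest change. Each is the 250 bases before the gene's start in RefSeq on GRCm38.p6, 5′ to 3′ on the gene's strand. No build is named for the array values. Capitals mark matches, on either strand, to AGATAA and also AGATAG, or with a leading T to TGATAA and also TGATAG, which are the letters that GATA factors bind. They also mark CACACCC, bound by Klf factors of red cells. The windows lie at chr6:34476106-34476355, chr11:108395047-108395296, chr11:32276350-32276599 and chr7:140093146-140093395, in the order printed, and all are on the plus strand.
Bpgm: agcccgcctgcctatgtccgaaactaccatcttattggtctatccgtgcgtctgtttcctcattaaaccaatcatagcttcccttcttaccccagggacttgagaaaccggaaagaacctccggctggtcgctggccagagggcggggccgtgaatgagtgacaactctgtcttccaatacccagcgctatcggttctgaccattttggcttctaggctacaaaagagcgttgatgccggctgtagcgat
Apoh: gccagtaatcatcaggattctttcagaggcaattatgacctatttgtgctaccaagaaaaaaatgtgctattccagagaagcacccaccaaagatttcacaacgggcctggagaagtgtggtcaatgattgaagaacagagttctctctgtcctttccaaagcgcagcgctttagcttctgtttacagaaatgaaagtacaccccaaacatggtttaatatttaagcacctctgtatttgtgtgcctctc
Hba-x: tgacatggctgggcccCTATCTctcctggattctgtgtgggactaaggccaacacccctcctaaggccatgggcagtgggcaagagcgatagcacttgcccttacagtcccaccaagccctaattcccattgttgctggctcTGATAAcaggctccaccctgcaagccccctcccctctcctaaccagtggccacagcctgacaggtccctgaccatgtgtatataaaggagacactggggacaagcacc
Prap1: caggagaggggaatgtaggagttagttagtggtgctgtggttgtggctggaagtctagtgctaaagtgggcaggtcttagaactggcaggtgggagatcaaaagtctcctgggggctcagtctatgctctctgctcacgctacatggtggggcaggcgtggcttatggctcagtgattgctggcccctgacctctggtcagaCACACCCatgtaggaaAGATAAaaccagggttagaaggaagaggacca
Hba-x held 2 matches to the GATA letters and Prap1 held 1, next to 1 match to CACACCC, while the windows of Bpgm and Apoh held 0 of either kind. Of all 32851 RefSeq windows of this length 26.5% held GATA letters and 6.93% held CACACCC. Counted by gene, as the called genes are, 29.7% of 27025 genes had a window with GATA letters and 7.9% one with CACACCC. Of the genes that rose, 15 of 23 had a window, and 3 of these 15 held GATA letters and 3 CACACCC. Of the genes that fell, 43 of 53 had a window, and 12 of these 43 held GATA letters and 7 CACACCC. A match describes letters in this window only.

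Genes listed for late red cell maturation made up the largest listed group that rose. Of the 35 measured genes of the red cell membrane and late erythroid list, 5 rose, against 0.126% of all genes, and 0 fell, with a median change of 0.40 against 0.02 over all genes. On 20 of the 35 genes each later array lay above both E12.5 arrays, which was so in 14.5% of all genes. After quantile normalisation 9 of the 35 were called higher and with equal housekeeping levels 10. The 5 were Tmcc2, Xpo7, Mkrn1, Car3 and Bpgm. Car3 is counted here by its place on the list. Its stage means from E12.5 to E15.5 were 7.52, 9.42, 8.51 and 11.65. Those of Apoh, a plasma protein, were 7.99, 9.70, 9.09 and 11.97, and those of Tmcc2 9.52, 11.6, 11.66 and 11.98. Which cells the Car3 RNA came from was not tested. At E14.5 alone Tmod1, which caps actin filaments in the red cell skeleton (1.03), and Fhdc1, a formin (1.13), were called as well, and at E13.5 alone Isg20, an exonuclease (1.04). Slc4a1, the anion exchanger of the red cell membrane and a member of this list, read 12.20 and 11.90 at E12.5 and 12.17 to 12.64 later, and was not called (change 0.35). Tmod1, Fhdc1, Isg20 and other list members called at only 1 stage were named after their values were seen.

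Tmcc2, a transmembrane coiled-coil protein, had the largest rise. It read 9.71 and 9.33 at E12.5, 11.76 and 11.43 at E13.5 and 11.85 and 11.47 at E14.5. Both later stages stood about 2 units above both E12.5 arrays and close to each other. The change was 2.11 ± 0.22 (SE; 4.31-fold; limma, adjusted p = 7.94e-05). Each change given with ± compares means of these 6 arrays or of 2 of their stages. Its SE takes the spread from the fit to all arrays of the series. Bpgm makes the bisphosphoglycerate that lowers the oxygen affinity of adult hemoglobin. It read 7.28 and 7.37 at E12.5, 8.87 and 8.67 at E13.5 and 8.77 and 8.57 at E14.5, with no overlap and a change of 1.40 ± 0.13 (limma, adjusted p = 3.3e-05). Its 3 probe sets gave changes of 1.08 to 1.47.

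Xpo7, a nuclear export receptor that red cell precursors need to condense their nucleus, read 9.40 and 8.92 at E12.5 and 10.68 to 11.20 later, a change of 1.78 ± 0.28 (limma, adjusted p = 0.00167). Of its 8 probe sets 7 had this sign, and their changes ran from -0.04 to 2.08. Mkrn1, a ubiquitin ligase, read 7.19 and 7.41 at E12.5 and 8.70 to 9.07 later (change 1.64), and without the probe sets that can bind several transcripts its change was 0.85 and not called. Car3, a carbonic anhydrase, read 7.88 and 7.17 at E12.5, 9.58 and 9.25 at E13.5 and 8.73 and 8.29 at E14.5. It rose by 1.89 at E13.5, and its change of 0.99 at E14.5 was not called.

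Several genes outside the list rose by a like amount. Tcp11l2 read 6.68 and 6.50 at E12.5 and 8.31 to 8.53 on the later arrays (change 1.83 ± 0.17; limma, adjusted p = 2.46e-05). Tent5c, a poly(A) polymerase, read 9.10 and 8.75 at E12.5 and 10.36 to 10.69 later (change 1.59 ± 0.19). Ube2o, a ubiquitin ligase that clears ribosomal proteins from reticulocytes, read 7.24 and 6.78 at E12.5 and 8.31 to 8.63 later (change 1.44 ± 0.15). Nrn1, neuritin, a small membrane-anchored protein first known from neurons, read 5.65 and 5.69 at E12.5, below the median gene, and read 7.04 to 7.22 later. Other genes that rose were Fbxo30, Gpcpd1, Ypel4, Fam214b, Armc8, Cd82, Gstm3 and Ptp4a3, with changes of 1.03 to 1.25. Without the probe sets that can bind several transcripts, Armc8 was represented by a set that changed by 0.05 and Gstm3 by one that changed by 0.11, and neither was called.

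Other lists of the red cell programme had no calls as deposited. Of 23 measured erythroid transcription factors and receptors 0 were called (median -0.02), nor were any of 15 genes of heme synthesis (median 0.01). After quantile normalisation 1 and 2 of these were called higher (medians 0.23 and 0.31), and with equal housekeeping levels 1 and 1. Gata1, the master regulator of the lineage, read 11.22 and 10.84 at E12.5 and 10.48 to 11.02 later (change -0.32, limma adjusted p = 0.197). Its change was -0.04 after quantile normalisation and -0.07 with equal housekeeping levels. Progenitor genes also were not called, 0 of 30 with a median of 0.00. Kit, the stem cell factor receptor, changed by -0.51 and Cd34 by -0.49 (limma, adjusted p = 0.0942 and 0.0562).

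Of 3 embryonic globins 2 fell, where 0.291% of all genes did. None of the 3 adult globins with a usable symbol was called, on sets that say little, as given below. Hbb-bh1, an embryonic beta-type globin, read 12.84 and 12.60 at E12.5, 10.48 and 10.54 at E13.5 and 11.47 and 11.32 at E14.5. Hba-x, the embryonic alpha-type globin, read 11.67 and 11.30, then 9.49 and 9.51, then 10.73 and 10.48. Both were lowest at E13.5, and at E14.5 they stood between the other 2 stages with no overlap. Over both later stages Hbb-bh1 fell by 1.77 and Hba-x by 1.43 (limma, adjusted p = 0.000107 and 2.16e-05). The difference between E14.5 and E13.5 passed the test for Hba-x (1.11 ± 0.15, limma adjusted p = 0.00486), and for Hbb-bh1 it was 0.88 ± 0.22 with an adjusted p of 0.308.

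Hbb-y, the third embryonic globin, read 13.42 and 13.10 at E12.5 and 12.47 to 12.92 later. Its change of -0.60 did not reach 1 unit (limma, adjusted p = 0.0207). Of the 6 adult globin genes listed, 3 had a probe set with 1 symbol. Hbb-b2 read 10.22 and 9.89 at E12.5 and 10.37 to 10.67 later (change 0.46; limma, adjusted p = 0.081). Without the probe sets that can bind several transcripts its change was -0.25. Hba-a1 read 5.48 to 5.59 on all 6 arrays, below the median gene (6.15), so its set says little about that gene. Globin genes are near-identical copies, so their sets can share signal.

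**Figure D2:**
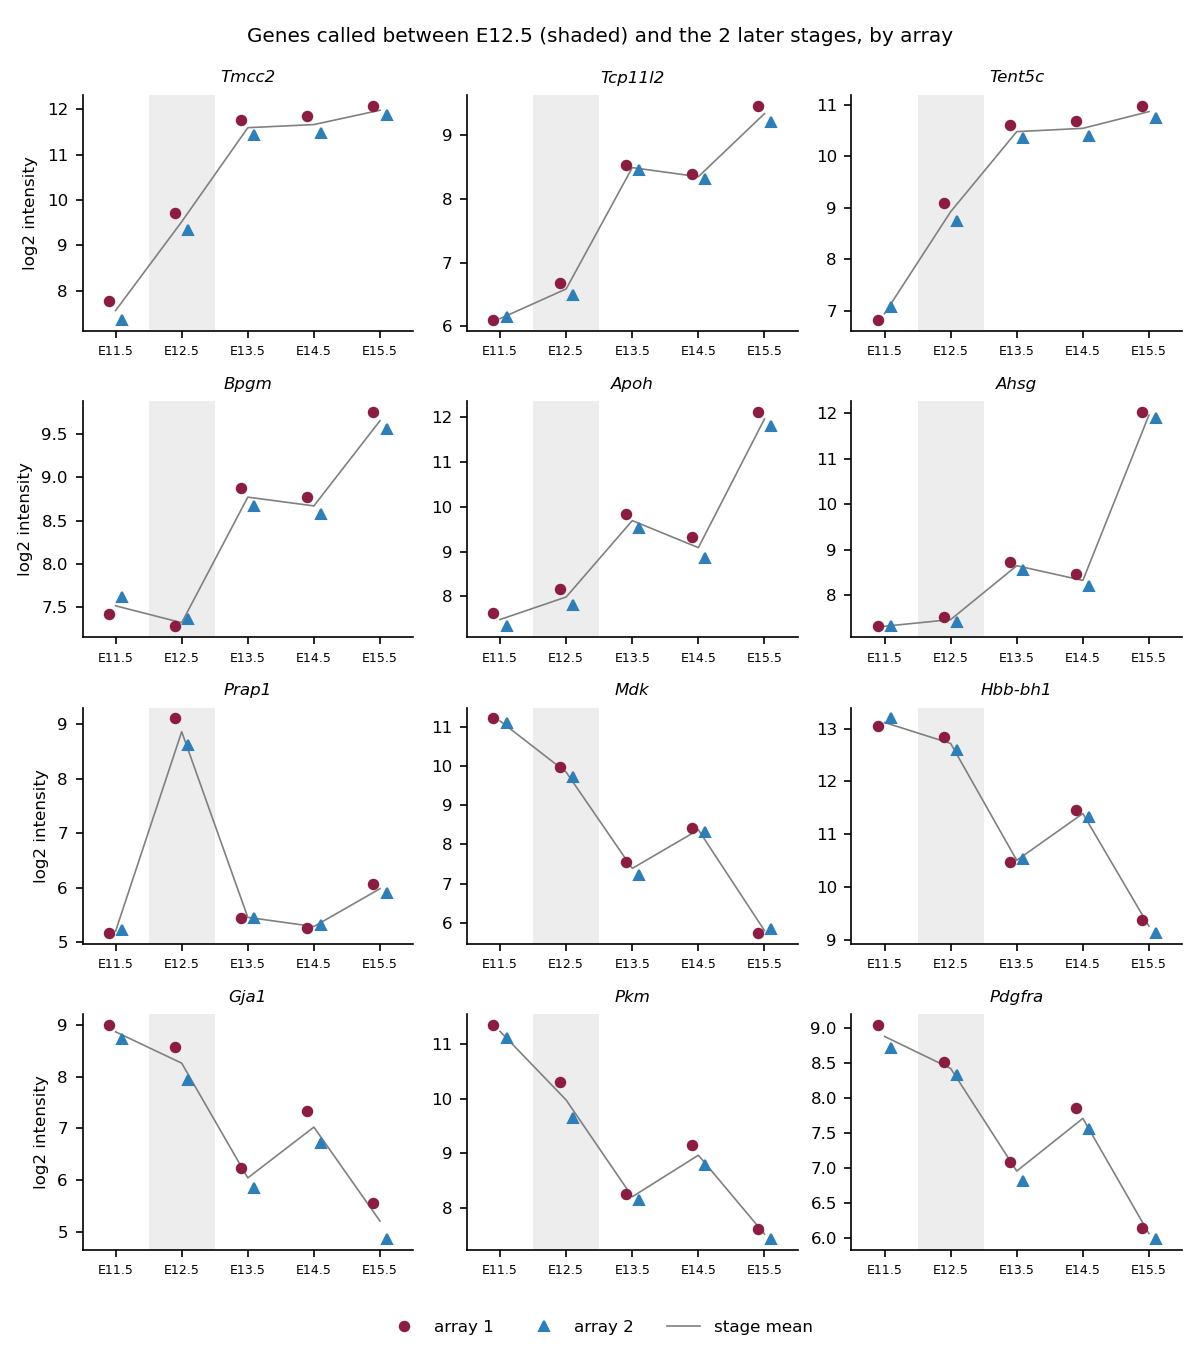
log2 intensity (vertical axes) of 12 called genes at E11.5 to E15.5 (horizontal axes), with 1 symbol per array and a line through the stage means; axes do not start at 0. The 6 genes in the upper panels read higher at E13.5 and E14.5 than at E12.5, the 6 in the lower panels lower, and Mdk, Hbb-bh1, Gja1, Pkm and Pdgfra read higher at E14.5 than at E13.5.

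Few genes of hepatocyte secretion were called. Of 30 measured secreted plasma proteins 2 rose, Apoh and Ahsg, and of 24 apolipoprotein and lipid export genes 2 rose, Apoh and Apoc4. Apoh is on both lists, and 0.126% of all genes rose. The list medians were 0.22 and 0.07 against 0.02 over all genes, and 0.41 and 0.30 after quantile normalisation. Each later array lay above both E12.5 arrays in 10 of the 30 and 4 of the 24, which was so in 14.5% of all genes. Apoh, a plasma glycoprotein that binds phospholipid, read 8.17 and 7.80 at E12.5, 9.85 and 9.54 at E13.5 and 9.33 and 8.85 at E14.5. Its change was 1.41 ± 0.19 (limma, adjusted p = 0.000486). Ahsg, the fetal plasma protein fetuin-A, read 7.52 and 7.40 at E12.5 and 8.19 to 8.74 later (change 1.02 ± 0.16). Apoc4 read 6.45 and 6.01 at E12.5 and 7.23 to 7.51 later (change 1.15 ± 0.19).

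Another pair of hepatocyte genes rose outside these lists. Slc47a1, an exporter of organic cations, read 5.70 and 5.60 at E12.5 and 6.72 to 7.26 later, and Rgn, regucalcin, read 8.10 and 7.60 and then 8.66 to 9.03 (changes 1.22 and 1.0). The most abundant secreted products were not called. Besides Alb and Afp, Apoa1, the main protein of high-density lipoprotein, changed by 0.25 (limma, adjusted p = 0.421). No clotting factor (0 of 28, median 0.20), complement gene (0 of 34, median 0.18) or bile acid gene (0 of 27, median 0.20) was called over both stages. Each later array lay above both E12.5 arrays in 11 of the 28, 12 of the 34 and 5 of the 27, against 14.5% of all genes. Of the complement list, 1 gene was called higher after quantile normalisation and 2 with equal housekeeping levels. At E13.5 alone Crp, C-reactive protein, and Mgst1, a membrane glutathione transferase, were called higher (1.06 and 1.05).

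Transcripts of the hepatoblast and oncofetal list went both ways. Of 39 measured, 4 fell (Mdk, Sox4, Sox11 and Hmga2) and 1 rose (Ahsg), with a median of -0.14. Of all genes 0.291% fell and 0.126% rose. Mdk, the growth factor midkine, read 9.98 and 9.72 at E12.5, 7.56 and 7.21 at E13.5 and 8.43 and 8.32 at E14.5. It fell by 1.97 over both later stages (limma, adjusted p = 3.83e-07), with E14.5 again between the other stages. Sox11 and Sox4, related transcription factors of immature tissues, fell by 1.25 and 1.24, and Hmga2, a chromatin protein of embryonic cells, fell by 1.07. Hmga2 was not called after quantile normalisation, nor were Hmga2 and Sox4 with equal housekeeping levels, and the list's median was then 0.01 and 0.10.

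The classical fetal liver genes on that list were not called. Dlk1, a surface protein of hepatoblasts, changed by -0.24, and Igf2, the fetal growth factor, by -0.09. At E13.5 alone Peg3 and Ndn, a pair of imprinted genes, were called lower (-1.10 and -1.29). So were Gata4 and Gata6, transcription factors of early liver and its mesenchyme, which changed by -1.10 and -1.13 at E13.5 and by -0.81 and -0.44 at E14.5. Cell division genes were not called in any of 42 mitosis and 48 DNA replication members (medians -0.09 and -0.29), where 0.126% of all genes rose and 0.291% fell. After quantile normalisation these medians were 0.15 and -0.07. Of the mitosis list 1 gene was called higher under that scaling and 1 with equal housekeeping levels. In 16 of the 48 replication genes each later array lay below both E12.5 arrays, which was so in 15.5% of all genes. Mki67 changed by -0.10 (limma, adjusted p = 0.78).

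Of the mesenchymal and mesothelial lists 1 gene each fell, where 0.291% of all genes did. Both calls held with arrays centred on their medians, and neither held after quantile normalisation or with equal housekeeping levels. Pdgfra, a receptor for platelet-derived growth factor on mesenchymal cells, was the 1 call of 41 measured stellate and mesenchyme genes (median -0.19). It read 8.52 and 8.33 at E12.5, 7.09 and 6.82 at E13.5 and 7.86 and 7.56 at E14.5, a change of -1.09 ± 0.16 (limma, adjusted p = 0.000864). In 15 of the 41 each later array lay below both E12.5 arrays, which was so in 15.5% of all genes. Vim, vimentin, was called at E13.5 alone (-1.10). Upk3b, a uroplakin of mesothelium, fell by 1.01, the 1 call of 16 mesothelial genes (median -0.17), and without the probe sets that can bind several transcripts its change was -0.67. After quantile normalisation and with equal housekeeping levels the changes of Pdgfra were -0.95 and -0.85 and those of Upk3b -0.91 and -0.77, so that both lists had 0 calls, and the stellate and mesenchyme median was -0.09 and 0.06.

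Several genes outside the lists fell as well. Cdh11, a mesenchymal cadherin, read 8.80 and 8.51 at E12.5, 6.83 and 6.58 at E13.5 and 7.88 and 7.50 at E14.5. Gja1, a gap junction connexin, read 8.58 and 7.94, then 6.24 and 5.85, then 7.33 and 6.72. Gja1 rests on a probe set that can bind several transcripts, and without such sets its change was -0.08 and not called, with 5 of its 6 sets below 0. Ackr3, a decoy receptor for the chemokine Cxcl12, read 8.10 and 8.05, then 6.18 and 6.33, then 7.18 and 6.83. In all 3 the E13.5 arrays were lowest and E14.5 lay between, and their changes over both stages were -1.46, -1.73 and -1.44. Robo1 and Epha3, guidance receptors, Tgfb2, a growth factor, Vcan, a matrix proteoglycan, and Nr2f1, Meis2 and Id3, regulators of transcription, fell by 1.01 to 1.31. Of these 7, Vcan, Meis2 and Id3 were not called after quantile normalisation, and with equal housekeeping levels only Robo1 was. Mex3b, an RNA-binding protein, fell by 1.80 and Tubb2b, a tubulin of immature neurons and other young cells, by 2.06.

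Genes of sugar breakdown and the hypoxia response had a low median as a list. Of 26 measured, 2 fell, Pkm and Pdk1, against 0.291% of all genes, and the median was -0.44 against 0.02 over all genes. Bright genes in general read lower here: the 1554 genes with a mean level of at least 9 had a median change of -0.30, which was -0.04 after quantile normalisation, where the list's median was -0.31. Pkm, the pyruvate kinase of growing tissue, read 10.31 and 9.65 at E12.5, 8.25 and 8.14 at E13.5 and 9.15 and 8.78 at E14.5 (change -1.40 ± 0.17; limma, adjusted p = 0.000292). Pdk1, which keeps pyruvate out of mitochondria, fell by 1.17, a call that was lost with equal housekeeping levels and without the probe sets that can bind several transcripts (-0.67). At E13.5 alone Aldoa, Pgk1 and Hk2, enzymes of glycolysis, and P4ha1, a collagen-modifying enzyme, were called lower by -1.28, -1.06, -1.05 and -1.06. Slc2a1, the glucose transporter of red cells, went the other way: it read 11.13 and 10.76 at E12.5 and 11.52 to 12.10 later, and its change of 1.03 at E14.5 was called. Gapdh changed by -0.37 (limma, adjusted p = 0.201).

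**Figure D3:**
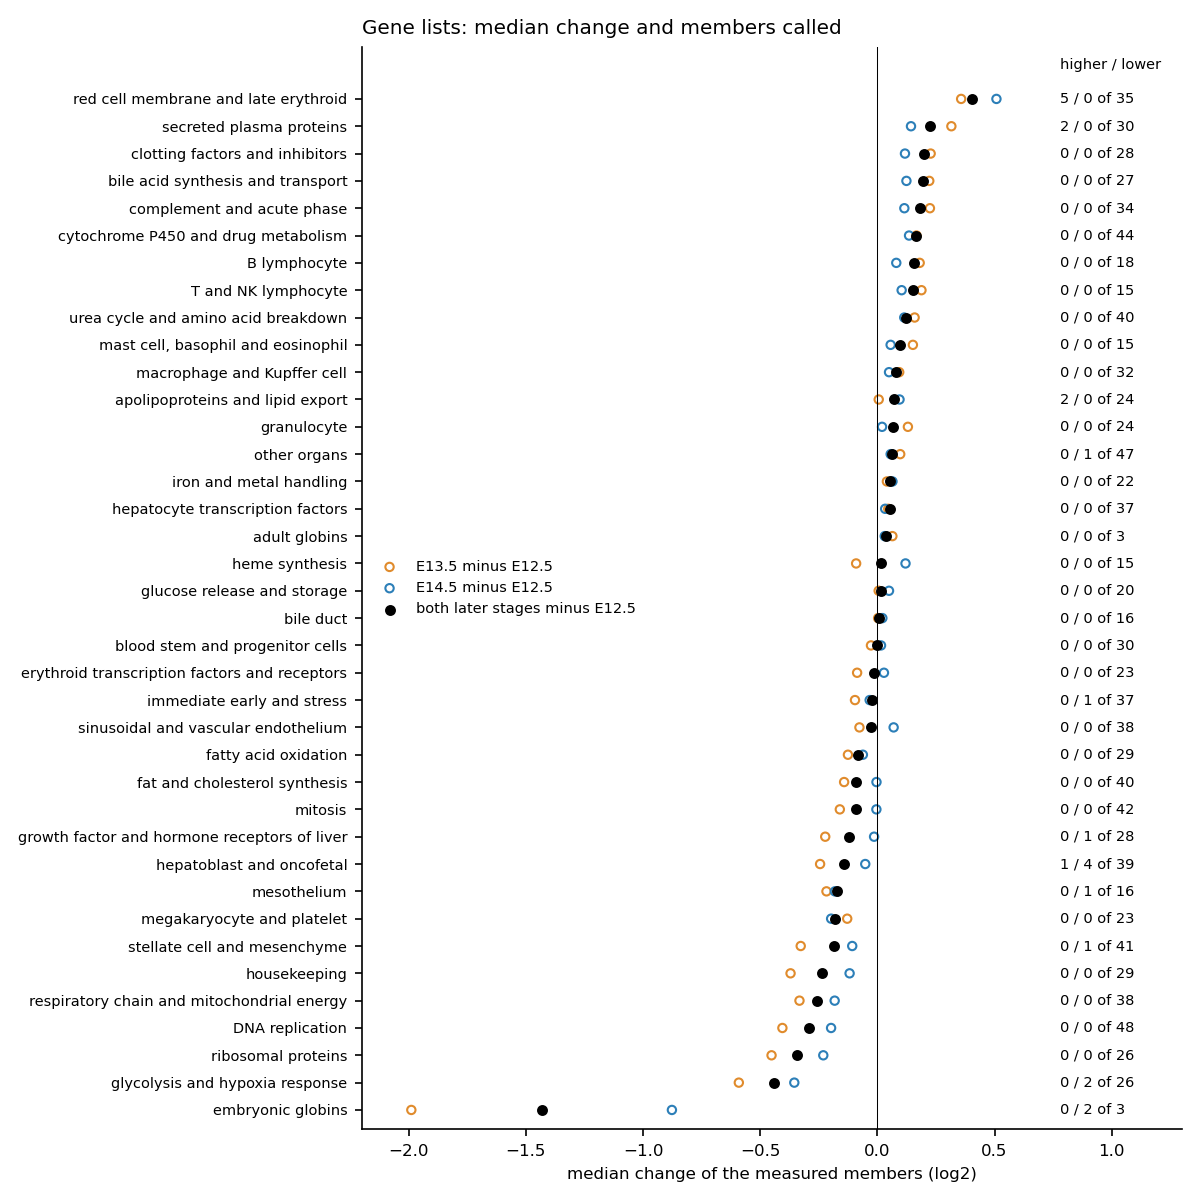
Median change of each of 38 gene lists (horizontal axis, log2), for both later stages (filled) and for E13.5 and E14.5 alone (open), with the members called higher and lower of those measured at the right. The late erythroid list has the highest median (0.40) and embryonic globins the lowest (-1.43).

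The shift of bright genes touched many lists without a call. Ribosomal proteins (26 measured, median -0.34), respiratory chain genes (38, median -0.26) and housekeeping genes (29, median -0.23) had 0 calls each over both stages. After quantile normalisation their medians were -0.12, -0.01 and -0.04. Of the 38 lists, 27 had no call. Among those were the lists of macrophages, granulocytes, lymphocytes, megakaryocytes, endothelium and bile duct, with medians of -0.18 to 0.16. Marco, a scavenger receptor of macrophages, was called higher at E13.5 alone (1.05).

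**Figure D4:**
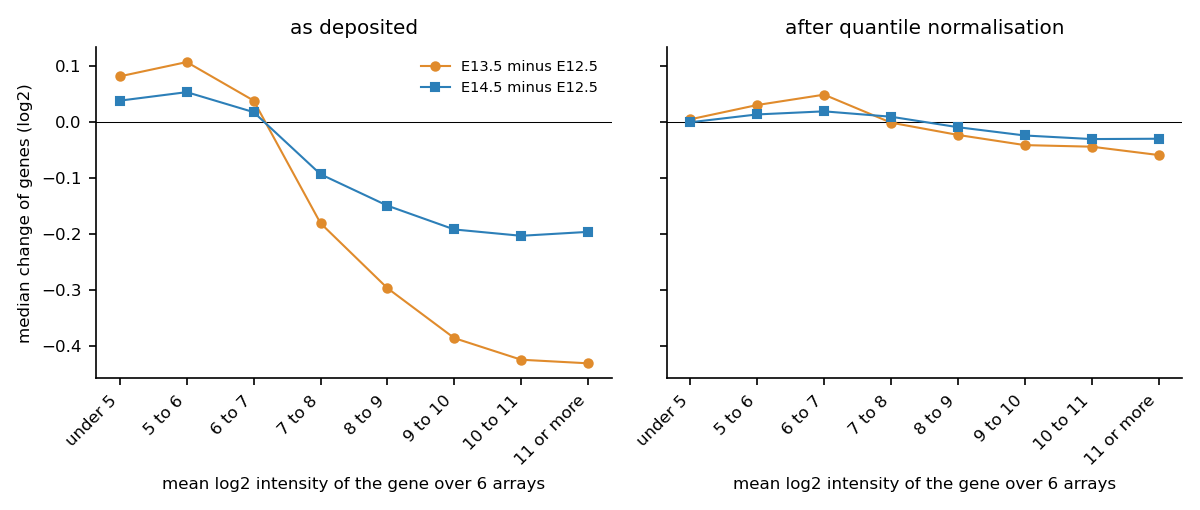
Median change from E12.5 to E13.5 and to E14.5 (vertical axis, log2) for genes grouped by their mean level over the 6 arrays (horizontal axis), as deposited and after quantile normalisation. As deposited the median ran from 0.08 in the dimmest genes to -0.43 in the brightest at E13.5 and from 0.04 to -0.20 at E14.5, and after quantile normalisation all medians lay between -0.06 and 0.05.

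Prap1 had the largest change of all genes and, among E11.5 to E15.5, was high at E12.5 alone. It encodes a small secreted protein known from intestine and uterus. It read 9.11 and 8.62 at E12.5, 5.45 and 5.45 at E13.5 and 5.25 and 5.32 at E14.5, and it read 5.17 and 5.23 at E11.5. The change was -3.50 ± 0.12 (11.3-fold; limma, adjusted p = 1.62e-10), and its second probe set gave -3.77. Guca2b, the intestinal hormone uroguanylin, followed the same course at a lower level, with 6.60 and 6.21 at E12.5, 5.02 and 5.07 at E11.5 and 5.23 to 5.38 on the later arrays. Cdx2, Vil1 and Fabp2, genes of intestine named after their values were seen, were dim on all 6 arrays. Cdx2 read 4.87 to 5.07, Vil1 4.99 to 5.19 and Fabp2 4.84 to 5.46. Of the 47 measured genes of other organs 1 was called, Actc1. The mean level of that list was 5.33 to 5.39 at E12.5 and 5.35 to 5.40 on the later arrays. Which cells the Prap1 and Guca2b RNA came from was not tested.

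A peak at E12.5 was seen in other genes too. Of the 53 genes that fell, 19 read higher on both E12.5 arrays than on any of the 8 arrays of E11.5, E13.5, E14.5 and E15.5. The 53 were called because they read higher at E12.5 than at E13.5 and E14.5, so that side of the peak follows from the choice. Among them were Abcb1b, a drug efflux pump, at 5.65 and 5.45 against 4.33 to 4.53 on the other 8, Epha3, Tgfb2, Tmem47, Cdh11, Vcan and Igf1. By stage means, 32 of the 53 that fell were already lower at E12.5 than at E11.5, and 47 were lower at E15.5 than at E13.5 and E14.5. Of the 23 that rose, 17 were higher at E12.5 than at E11.5 and 22 were higher still at E15.5. The shares of all genes with these courses were not counted, so the counts in this paragraph are descriptions of the called genes.

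Sex-linked transcripts differed among the pools. Eif2s3y, a translation initiation subunit encoded on the Y chromosome, read 8.17 and 7.72 at E12.5, 7.12 and 6.81 at E13.5 and 4.28 and 4.1 at E14.5. Xist, the RNA that silences an X chromosome in female cells, read 8.35 and 8.45, then 8.84 and 8.67, then 10.45 and 10.07. Of these 3 stages, Eif2s3y was highest and Xist lowest at E12.5, and E14.5 was at the other end. The other probe set of Eif2s3y changed by 0.02 over both later stages. Eif2s3y is counted among the 53 genes that fell and Xist among the 23 that rose. Kdm5d, another Y-linked gene, was dim throughout, at 4.51 to 4.84. Uty, also Y-linked and dim, read 5.28 and 5.25 at E12.5, 4.91 and 5.31 at E13.5 and 4.66 and 4.63 at E14.5. Whether the mix of male and female livers in the pools bears on any other change was not tested.

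Most of the 8 genes called between E14.5 and E13.5 were higher at E14.5. Actc1, the cardiac actin, read 8.06 and 7.77 at E12.5, 6.08 and 6.10 at E13.5 and 7.83 and 7.57 at E14.5, a difference between the later stages of 1.61 ± 0.13 (limma, adjusted p = 3.8e-05). Igf1, the growth hormone-dependent growth factor, read 8.40 and 8.31, then 6.62 and 6.86, then 7.95 and 7.81. Both were high at E12.5 and E14.5 and low at E13.5, and at E11.5 and E15.5 they read between 5.46 and 6.61. Tubb2b read 8.45 and 7.88, then 5.10 and 5.32, then 7.19 and 6.80. Pcbp4, an RNA-binding protein, and Cited4, a transcriptional co-activator, likewise read higher at E14.5 than at E13.5, by 1.03 and 1.02.

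**Figure D5:**
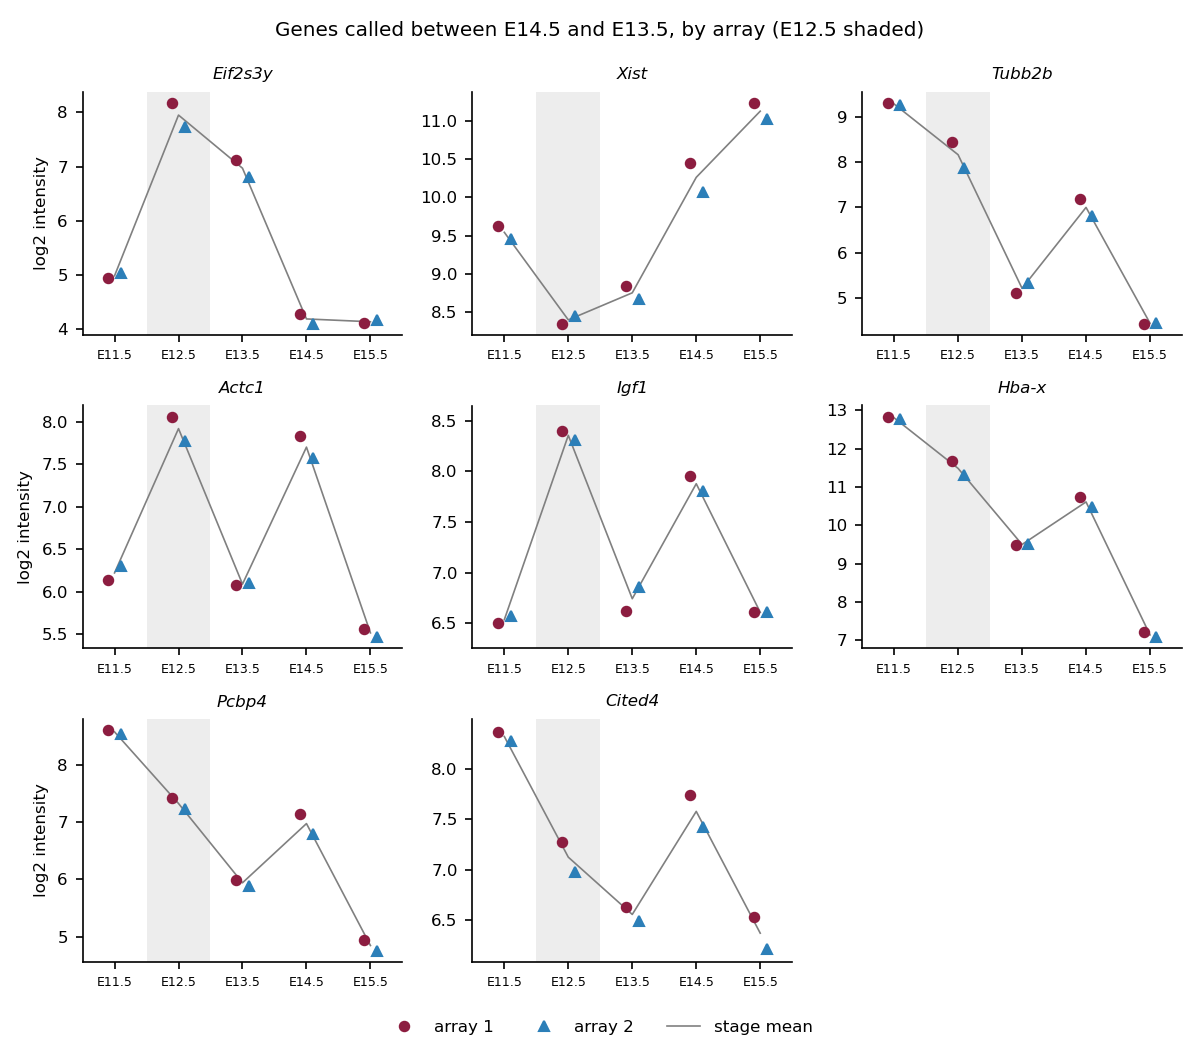
log2 intensity (vertical axes) at E11.5 to E15.5 (horizontal axes) of the 8 genes called between E14.5 and E13.5, with 1 symbol per array and a line through the stage means; axes do not start at 0. Eif2s3y is the 1 gene lower at E14.5, and the other 7 are higher at E14.5 than at E13.5; among these all but Xist read lower at E13.5 than at E12.5.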

How the data were processed

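Total RNA of pooled livers was reverse transcribed from oligo(dT), labelled with biotin and hybridised, per the labels' protocols. The authors deposited 1 intensity per probe set and array on a linear scale (12.6 to 25175); RMA is named in the submitters' processing notes, with no version or role given in the sources used here. The log2 values of these deposited intensities were analysed without a pseudocount. Probe sets with 1 symbol were kept (34958 of 45101; 932 had several and 9211 none), and a gene took the set with the highest mean over the 14 stages.

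One mean per stage was fitted to all 25 arrays with limma 3.58.1 (lmFit, eBayes without trend) in R 4.3.3, so that the spread is shared across stages. Figures and counts used Python 3.11.15 with pandas 2.3.3. Arrays have no depth, and their number limits the precision. The fit was tested on simulated data with 200 changed genes and independent errors. That setting leaves out errors shared by arrays and the spread between pools, so it checks the fitting steps only. The comparison, the 38 gene lists (1082 of 1225 entries measured) and the rule for named genes were chosen with earlier results of these data known. That rule took the 8 largest calls per direction without overlap, up to 4 called members and 2 bright uncalled members of each list, 12 genes in any case and the 8 calls between E14.5 and E13.5; further called genes, genes of intestine, sex-linked genes and list members called at 1 stage were named after their values were seen. Alternatives covered scaling, probe set choice, dim genes, the variance model, the arrays fitted, each array left out and the replicate number as a block.

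Arrays with 1 replicate number deviated together from their stage means at the stages compared (r = 0.465, 0.655 and 0.613 between the 3 stages). Over the 11 stages with 2 arrays, r exceeded 0.1 in 38 of 55 stage pairs and ran from -0.573 to 0.730. At each of the 3 stages the first array also had the wider range of log2 intensity. The pairing comes from the labels' numbers and these correlations, and what lies behind it was not tested.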

Additional observations from a re-analysis of the deposited data

Results flagged for a closer look

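For 8 genes the changes from E12.5 differed between E13.5 and E14.5 by the test of the difference itself (limma, adjusted p under 0.05 and at least 1 log2 unit, E14.5 minus E13.5). Eif2s3y differed by -2.78 and Xist by 1.51, both sex-linked. Tubb2b differed by 1.79, Actc1 by 1.61, Igf1 by 1.14, Hba-x by 1.11, Pcbp4 by 1.03 and Cited4 by 1.02. All 8 rest on 1 pool per stage, and with the spread taken from the 6 arrays alone only Eif2s3y was called, whereas with the replicate number as a block in that fit all 8 were, among 10 genes in all. Without the probe sets that can bind several transcripts, Cited4 was represented by a set that differed by -0.06.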

How the results depend on the processing

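E13.5 and E14.5 kept 1 sign for every gene called at either stage under each alternative fitted, except without the probe sets that can bind several transcripts (170 of 172) and with a separate E12.5 array for each stage (195 of 196). None of the 76 called genes changed sign over both stages in any of the 20 alternatives, and 7 were called in all 20: Bpgm, Nrn1, Tcp11l2, Tent5c, Tmcc2, Ube2o and Prap1. Scaling gave 45 higher and 34 lower after quantile normalisation (46 and 34 with the replicate block), and 60 and 16 with equal housekeeping levels. Arrays centred on their medians gave 22 and 60. Arrays scaled to equal median and SD, chosen after seeing the data, gave 33 and 40. The mean of all probe sets gave 34 lower, 106 calls at E13.5, 5 between E14.5 and E13.5, and 111 genes of 1 sign with 100 smaller at E14.5. With 6 arrays only, E14.5 had 16 calls and E14.5 against E13.5 had 1. With the 4 later arrays as 1 class 11 genes were lower, and with each pool as 1 sample 8 were higher and 1 lower. Leaving out 1 array gave 21 to 29 higher and 14 to 204 lower, with 14 lower without the first E12.5 array and 204 without the second. It gave 80 to 485 calls at E13.5, 27 to 72 at E14.5, 3 to 11 between E14.5 and E13.5, 87 to 490 genes of 1 sign and 72 to 475 smaller at E14.5. The replicate number as a block, which takes arrays of 1 number as paired across stages, kept all 23 higher and 53 lower genes. It gave 193 calls at E13.5 and 43 at E14.5. With 6 arrays only and this block, they were 24 higher, 53 lower, 45 at E14.5 and 10 between E14.5 and E13.5. Values of genes that were not called turned sign under some settings. Under quantile normalisation (with or without block), equal housekeeping levels, and equal median and SD, Afp read 0.018, 0.0036 and 0.19, Dlk1 0.024, 0.005 and 0.10, Igf2 0.17, 0.16 and 0.27, and Mki67 0.18, 0.15 and 0.26. Mki67 ran from -0.22 to 0.026 over the arrays left out, and Gapdh read 0.026 at equal median and SD. Without the sets that bind several transcripts, Hbb-b2 read -0.25, Dlk1 0.024, Armc8 at E13.5 -0.010 and Cited4 between the later stages -0.062. The causes of these shifts were not tested. Signal over background limits dim genes. Of the 53 lower genes 39 had a level of at least 6, and all 39 were still called in the fit without dimmer genes.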

Other observations

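Of the 76 called genes, 46 had several probe sets, and in 35 of these every set changed in the direction of the call. The other 11 had at least 1 set without that sign. Sox4 had 6 of 8 sets with the sign of the call, Vcan 3 of 8, Robo1 1 of 3, Armc8 2 of 5 and Eif2s3y 1 of 2, so their values depend on the set that stands for the gene. In contrast, all 6 sets of Sox11, all 6 of Mkrn1 and all 3 of Hbb-bh1 had 1 sign, with changes of -1.25 to -0.47, 0.37 to 1.64 and -1.77 to -1.12.

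Vapb, an endoplasmic reticulum protein that tethers membranes, was 1 of the 7 genes called at E14.5 alone. It read 8.21 and 7.83 at E12.5, 7.48 and 7.43 at E13.5 and 6.64 and 6.58 at E14.5, with no overlap between stages and changes from E12.5 of -0.56 and -1.41. Insig1, which restrains cholesterol synthesis, and Rpl37, a ribosomal protein, were called lower at E13.5 alone (-1.02 and -1.10). Both were chosen after their values were seen.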
